A study of Mus musculus with 8 samples.

Results

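The interferon-stimulated genes followed here through mouse brain RNA were Ifit1, Ifit2, Ifit3, Isg15, Stat2, Irf7, Irf9, Bst2 and Ifitm3. They were chosen by name, as 9 of the 57186 genes listed in each library, and all 9 had enough reads to be tested. The libraries were 4 of Akap11 conditional knockout (cKO) brain and 4 of control brain. Akap11 encodes an anchoring protein of protein kinase A, and the libraries were made to see how its deletion alters brain RNA. The tissue is labelled brain with no region. The sources used here do not give the Cre line, the deleted exons, the genotype of the controls, age, sex or pooling. The design speaks of mice and replicates without saying that each library is 1 mouse, so p-values measure only the spread between these libraries.

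Interferons are secreted proteins that cells release when they sense foreign or misplaced nucleic acids. Type I interferon binds a receptor whose kinases, including JAK1 and TYK2, activate STAT proteins. A complex that holds STAT2 and IRF9 then enters the nucleus and binds the interferon-stimulated response element (ISRE) in target promoters. In the brain, microglia, endothelial cells, astrocytes and neurons can all respond, and a low level of these transcripts is known from unchallenged tissue. The libraries were of whole tissue, in which fewer cells of a type and less RNA per cell cannot be told apart.

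The ISRE core was looked up in the 9 promoters, because it is the sequence through which the pathway reaches its targets. Promoter windows came from RefSeq (build GRCm38.p6) and ran from 250 bases before to 50 bases after each annotated start; all 9 genes matched. The core was written as GAAANNGAAA, with TTTCNNTTTC as its other strand, and matches could overlap. It was found for 6 of the 9 genes, for 32 of 65 other interferon-stimulated genes with a window (49.2%), and for 1079 of all 27025 genes (3.99%). In Ifitm3 the matches lay after the start and are not printed. No match was found in the windows of Ifit2, Irf7 and Irf9, which says only that these letters are not in those windows. The stretches around the matches upstream of the start follow, 5′ to 3′ on the strand of the gene, with the core in capitals.
Ifit1 (chr19:34640765-34640833, plus strand): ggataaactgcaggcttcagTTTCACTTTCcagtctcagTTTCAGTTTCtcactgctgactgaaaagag
Ifit3 (chr19:34583353-34583436, plus strand): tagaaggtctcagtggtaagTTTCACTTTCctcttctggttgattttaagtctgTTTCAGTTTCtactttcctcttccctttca
Isg15 (chr4:156200855-156200916, minus strand): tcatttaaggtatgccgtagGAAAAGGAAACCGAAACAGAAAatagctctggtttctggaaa
Stat2 (chr10:128270256-128270305, plus strand): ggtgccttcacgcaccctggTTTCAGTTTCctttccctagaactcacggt
Bst2 (chr8:71537567-71537622, minus strand): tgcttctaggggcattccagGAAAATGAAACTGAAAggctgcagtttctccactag
The first match began 104 bases upstream of the start in Ifit1, 156 in Ifit3, 78 in Isg15, 222 in Stat2 and 130 in Bst2. Ifit1 and Ifit3 held 2 separate matches in the order TTTCACTTTC and then TTTCAGTTTC, while those of Isg15 (3) and Bst2 (2) overlapped in a single run.

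Reads in genes numbered 13841218 to 19991942 in cKO libraries and 15752877 to 19818313 in control libraries. Levels are given as CPM (counts per library made comparable by TMM scaling). Akap11 was at 220, 214, 237 and 240 CPM in cKO replicates 1 to 4 and at 373, 312, 315 and 291 CPM in control replicates 1 to 4. The log2 difference was -0.50 (SE 0.069) with an edgeR adjusted p of 0.0103. The call ended without cKO replicate 2 (log2 difference -0.47, edgeR adjusted p 0.104) and without control replicate 2 (-0.52, edgeR adjusted p 0.0616), with the size of the difference close to that from all libraries. Genes held 63.8% of the listed reads in cKO replicate 1 and 73.7% to 79.7% in the rest. The deviation of this library from the mean of all 8 also followed GC content across genes (Spearman's rho 0.665 over 10331 genes with a mean of 10 CPM or more), where the rest had rho between -0.43 and 0.366. The part of its lower share of reads in genes in the values below was not tested.

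The basal level of the 9 genes in brain was low to moderate. Per kilobase of the longest annotated transcript, Ifitm3 stood highest, at 12.2 ± 2.64 CPM per kilobase in cKO and 12.3 ± 2.42 in control brain (SD, n = 4 each). Ifitm3 encodes a membrane protein that blocks fusion of viruses with endosomes. Stat2, which encodes a subunit of the ISRE-binding complex, followed at 6.81 ± 0.236 CPM per kilobase in cKO and 6.74 ± 0.652 in control brain. These 2 genes lay above the median of 5.89 CPM per kilobase over 16463 tested genes with a known length, and the other 7 lay below it. By their means over all 8 libraries, Bst2 (4.63 CPM per kilobase), Ifit3 (4.34), Ifit2 (3.70), Irf9 (2.95) and Isg15 (2.38) came next, each overlapping its neighbour in the order. Ifit1 (1.14) and Irf7 (0.656) were lowest. Irf7, which encodes the transcription factor that drives interferon alpha genes, lay at the 12.3rd percentile of the tested genes. Stat2 lay at the 53.5th and Ifitm3 at the 68.4th. Ifitm3 and Stat2 overlapped in no library with the next gene down, and neither did Isg15 with Ifit1. With exons pooled over transcripts, Stat2 stood at 5.03 and Irf9 at 2.12 CPM per kilobase. Ifit3 and Bst2 then changed places, as did Isg15 and Irf9, and Stat2 overlapped its neighbour. The median over tested genes was not computed with exons pooled, so the place of Stat2 against it is not known there.

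**Figure D1:**
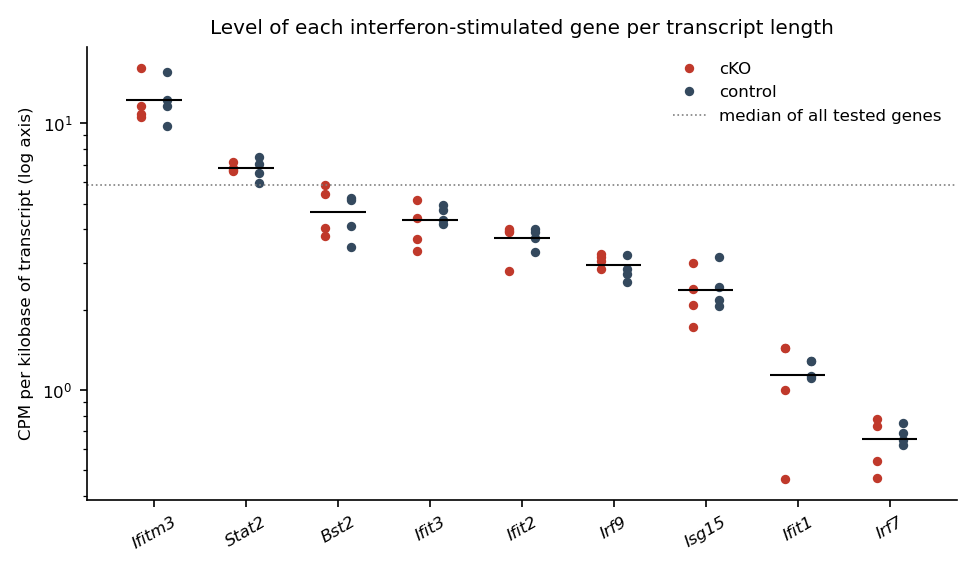
Level of the 9 genes in CPM per kilobase of the longest transcript (log axis), 1 point per library, with cKO libraries left and control libraries right for each gene. The bar is the mean over 8 libraries and the dotted line the median of all tested genes (5.89); Ifitm3 and Stat2 are above it and Irf7 is lowest at 0.656.

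Reads with more than 1 alignment (4.10% to 4.39% of the listed reads in cKO and 4.28% to 4.31% in control libraries) are listed outside the gene counts, so reads from sequence shared with a near copy may be missing from a gene's count. Of the 50-base words in the longest Ifit3 transcript, 51.2% also occur in transcripts of Ifit3b, its neighbouring copy, so the level of Ifit3 and its place in the order per kilobase are uncertain. The share was 10.02% for Ifitm3, mostly with pseudogenes and with Ifitm2 and Ifitm1, and 7.14% for Ifit1, with Ifit1bl2 and Ifit1bl1. It was 3.96% for Isg15 and 0.340% for Irf9, and 0 for Ifit2, Stat2, Irf7 and Bst2. Ifit3b itself held 588 reads over the 8 libraries against 1083 for Ifit3. Exon overlap with another gene covered 2.28% of Irf9 (Rnf31) and 1.19% of Irf7 (Phrf1, on the opposite strand); whether reads were counted by strand is not stated.

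None of the 9 genes passed the test between cKO and control brain, with edgeR adjusted p from 0.899 to 0.995. At an unadjusted p under 0.05 the edgeR count was 0 as well, and DESeq2 and limma voom called 0 of the 9. Over all 16766 genes tested, 4 were called (0.0239%) and 802 had an unadjusted p under 0.05 (4.78%). Of the 9 log2 fold changes 4 were positive and 5 negative, with a median of -0.01, against a median of 0.0034 over all genes tested. In no member did the 2 groups of libraries separate, against 2.96% of all genes tested.

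The Ifit genes encode RNA-binding proteins that hold back translation of foreign RNA. Ifit1, whose product recognises RNA ends that lack host methylation, had 1.23, 3.83, 3.82 and 2.66 CPM in cKO replicates 1 to 4 and 2.94, 2.99, 3.41 and 3.41 CPM in control replicates 1 to 4. Its lowest value, in cKO replicate 1, came from 17 reads (95% counting interval 0.717 to 1.97 CPM), below every other library, while cKO replicates 2 and 3 were the highest of all. On the log2 scale the change was -0.11 (SE 0.25), with a 95% interval from -0.63 to 0.40. Leaving out cKO replicate 1 gave 0.10, and GC-content offsets gave -0.09.

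Ifit2, whose human product joins those of IFIT1 and IFIT3, had 10.7, 15.0, 14.9 and 15.4 CPM in cKO replicates 1 to 4 and 14.9, 15.3, 12.6 and 14.2 CPM in control replicates 1 to 4. Again cKO replicate 1 was the lowest of the 8, and the other 3 cKO libraries lay close together at and just above the upper end of the control range. On the log2 scale the change was -0.01 (SE 0.11) with a 95% interval from -0.25 to 0.22, or 0.08 without cKO replicate 1. Ifit1 and Ifit2 have the lowest GC contents of the 9 longest transcripts, 43.3% and 42.0%, against 47.5% to 55.4% in the others.

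Ifit3, whose human product stabilises IFIT1, had 7.67, 8.98, 5.78 and 6.41 CPM in cKO replicates 1 to 4 and 7.59, 7.32, 8.25 and 8.63 CPM in control replicates 1 to 4. The cKO libraries spread on both sides of the control libraries, with the highest value in cKO replicate 2 and the lowest in cKO replicate 3. On the log2 scale the change was -0.15 (SE 0.14), with a 95% interval from -0.44 to 0.15. With the reads of Ifit3b added it was -0.14 (edgeR adjusted p 0.894), an alternative chosen after the shared sequence was seen.

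Isg15 encodes a ubiquitin-like protein that is attached to other proteins during the response. It had 1.81, 2.27, 1.31 and 1.58 CPM in cKO replicates 1 to 4 and 2.39, 1.85, 1.65 and 1.56 CPM in control replicates 1 to 4, from 25 to 45 reads per library. The groups overlapped over most of their range, and cKO replicate 3 was lowest. The log2 change of -0.09 (SE 0.25) has a 95% interval from -0.61 to 0.43, which leaves changes between 0.655-fold and 1.35-fold inside it.

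Bst2, or tetherin, holds budding virus particles at the cell surface. It had 4.63, 4.29, 3.22 and 2.99 CPM in cKO replicates 1 to 4 and 4.16, 3.25, 2.72 and 4.07 CPM in control replicates 1 to 4. Ifitm3 had 7.31, 10.9, 7.84 and 7.12 CPM in cKO replicates 1 to 4 and 10.5, 8.28, 6.60 and 7.88 CPM in control replicates 1 to 4. In both genes the groups overlapped over most of their range; for Ifitm3, cKO replicate 2 and control replicate 1 stood above the other 6. The log2 fold changes were 0.08 for Bst2 (SE 0.19, 95% interval -0.32 to 0.48) and 0.0085 for Ifitm3 (SE 0.16, 95% interval -0.32 to 0.34). Without cKO replicate 1, the highest library for Bst2, its value turned to -0.02.

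Stat2 and Irf9 had the smallest SEs of the 9 genes. Stat2 had 29.8, 31.4, 29.1 and 29.4 CPM in cKO replicates 1 to 4 and 26.2, 30.8, 28.6 and 32.9 CPM in control replicates 1 to 4. All cKO libraries lay inside the control range. Its log2 fold change was 0.01 (SE 0.081), and the 95% interval of -0.16 to 0.18 corresponds to 0.897-fold to 1.14-fold. Irf9, which encodes the DNA-binding subunit of the same complex, had 12.2, 11.0, 12.5 and 11.8 CPM in cKO replicates 1 to 4 and 9.86, 12.4, 10.5 and 11.0 CPM in control replicates 1 to 4. Among the 9 genes it had the lowest p-value (edgeR, 0.275 unadjusted and 0.899 adjusted), with a log2 change of 0.12, SE 0.11 and a 95% interval from -0.10 to 0.34, and control replicate 2 lay above 3 of the 4 cKO libraries. Irf7 had 2.53, 2.37, 1.76 and 1.52 CPM in cKO replicates 1 to 4 and 2.45, 2.23, 2.02 and 2.11 CPM in control replicates 1 to 4. The cKO libraries held both the highest and the lowest values of Irf7, and its log2 change was -0.11 with SE 0.22 and a 95% interval from -0.58 to 0.35. Without cKO replicate 1, again the highest, it was -0.22.

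**Figure D2:**
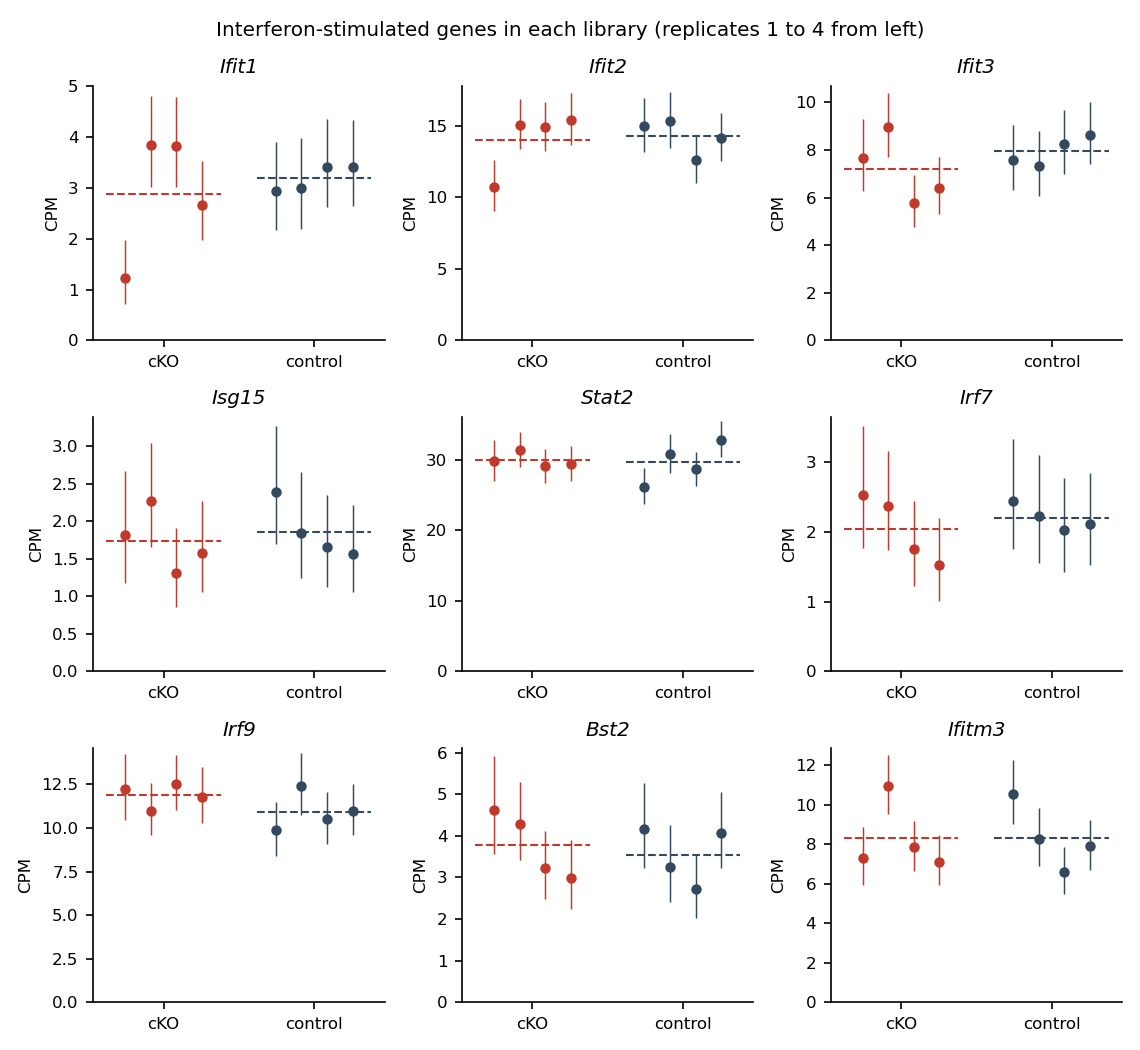
CPM of each of the 9 genes in every library, cKO left and control right, replicates 1 to 4 from left within a group. Vertical lines are 95% Poisson counting intervals and dashed lines group means (n = 4); in every gene the groups overlap, and Ifit1 in cKO replicate 1 is at 1.23 CPM.

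How far the libraries differed beyond counting error varied between members. The coefficient of variation of CPM over 8 libraries was 27.7% for Ifit1, where the mean count alone would give 13.4%, and 19.1% for Ifitm3, where it would give 8.21%. Ifit2 (11.7% against 6.28%), Ifit3 (14.3% against 8.59%), Bst2 (19.2% against 12.4%) and Stat2 (6.72% against 4.33%) also varied more than their counts alone would give. For Ifit1 and Ifit2 this spread includes cKO replicate 1, at 1.23 and 10.7 CPM. The rest of the libraries ran from 2.66 to 3.83 CPM for Ifit1 and from 12.6 to 15.4 CPM for Ifit2. The spread without cKO replicate 1 was not computed. For Irf7 (16.4% against 16.3%), Isg15 (20.4% against 17.7%) and Irf9 (8.54% against 7.02%) the spread was close to that of counting alone. These figures cover counting error only, since no molecular identifiers are described for these libraries.

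The rest of the pathway was read from lists of ligands, receptors, sensors and further target genes. Of 21 interferon genes, 2 had any read: Ifnk with 1 read and Ifnz with 4, all in control libraries, and none was tested. Among 14 tested receptor and signalling genes 0 were called by edgeR and 1 had an unadjusted p under 0.05, with a median log2 fold change of -0.0014. That gene was Irf3, a transcription factor activated by nucleic acid sensing, at 18.9 ± 1.40 CPM in cKO and 16.2 ± 2.14 CPM in control brain (SD, n = 4 each; log2 fold change 0.22, SE 0.10, edgeR adjusted p 0.889). Irf1 (0.21, SE 0.17) and the receptor kinase gene Jak1 (-0.05, SE 0.055) were the next reported by p-value; 1 gene that the naming rule takes is not reported here.

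Among 16 tested sensors and adaptors 0 were called by edgeR, with a median of -0.05. Tbk1, the kinase that activates IRF3, was at 49.7 ± 2.89 CPM in cKO and 55.3 ± 2.99 CPM in control brain (log2 fold change -0.15, SE 0.067, edgeR adjusted p 0.889), the only member of its list with an unadjusted p under 0.05. The DNA sensor gene Cgas stood at -0.42 (SE 0.27), the adaptor gene Mavs at 0.21 (SE 0.14) and the RNA sensor gene Ifih1 at -0.19 (SE 0.15). Of 10 tested genes of ISG15 conjugation and feedback 0 were called, and 0 had an unadjusted edgeR p under 0.05. Uba7, which encodes the enzyme that activates ISG15, was at 3.95 ± 0.670 CPM in cKO and 3.20 ± 0.198 CPM in control brain (log2 fold change 0.31, SE 0.17). Ptpn6 stood at 0.20 (SE 0.19), Usp18, whose product removes ISG15, at 0.30 (SE 0.32) and Herc6, an ISG15 ligase gene in mice, at -0.11 (SE 0.14).

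Of 84 other interferon-stimulated genes 83 had reads and 70 were tested. By edgeR 0 were called, 28 log2 fold changes were positive and 42 negative, and the median was -0.05; 3 had an unadjusted p under 0.05, 2 higher and 1 lower. Over all genes tested 8588 were positive and 8178 negative, and 4.78% had an unadjusted p under 0.05. Ifitm1, a neighbour of Ifitm3, had 2.17, 2.67, 2.11 and 2.99 CPM in cKO replicates 1 to 4 and 1.10, 0.764, 1.60 and 2.21 CPM in control replicates 1 to 4. Its log2 change of 0.78, with SE 0.27 and an edgeR adjusted p of 0.889, was the highest of the list, and control replicate 4 lay above 2 cKO libraries. Gbp4, an interferon-induced GTPase gene, stood at 0.59 (SE 0.23), with 7.04 CPM in cKO replicate 3 against 3.18 to 3.62 CPM in the other cKO libraries and 2.56 to 3.06 CPM in control libraries. Slfn5 was at 6.57 ± 0.868 CPM in cKO and 8.29 ± 0.893 CPM in control brain (log2 fold change -0.32, SE 0.13, edgeR adjusted p 0.889), and Parp12 stood at 0.20 (SE 0.10). The near copies of members had log2 fold changes of 0.07 for Ifitm2, -0.12 for Ifit3b, 0.33 for Ifit1bl1 and -0.06 for Ifit1bl2, none of them called.

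**Figure D3:**
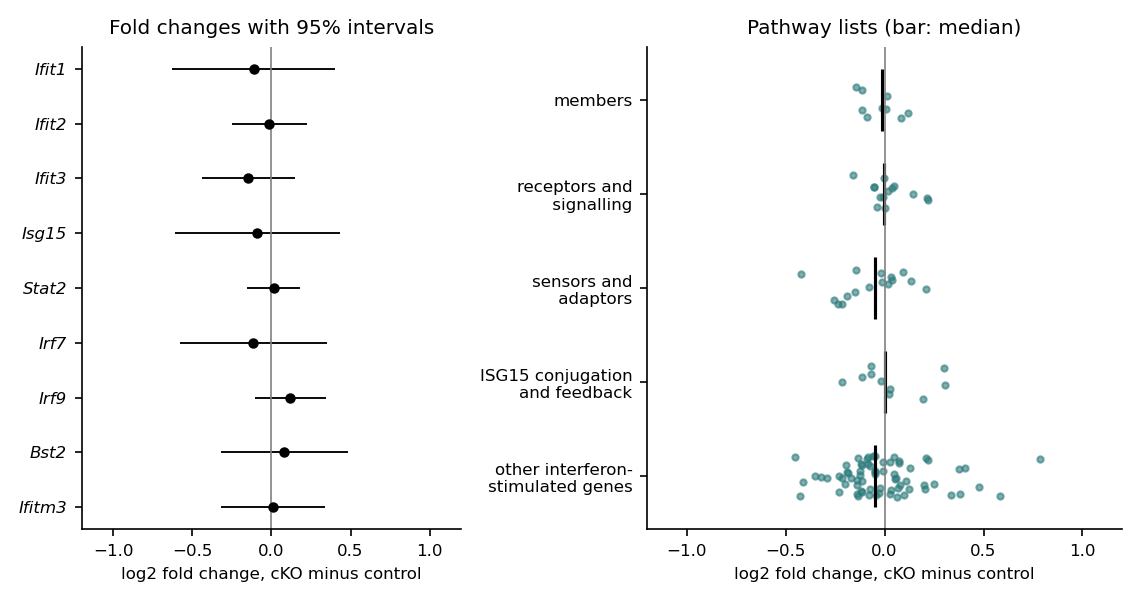
Left, log2 fold change (cKO minus control) of the 9 genes with 95% intervals from edgeR; every interval spans 0. Right, log2 fold changes of the tested genes of each pathway list, 1 point per gene (vertical scatter for display only) with the median as a bar; medians lie between -0.05 and 0.0024.

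Co-variation of the 9 genes over the libraries was mixed. Over 36 pairs, Pearson's r of log2 CPM (8 libraries) had a median of 0.05 and ran from -0.57 to 0.77, with 20 pairs positive and 16 negative. Leaving out control replicate 1 gave a median of 0.31, leaving out cKO replicate 1 gave 0.24, and leaving out cKO replicate 3 gave 0.15; the other omissions gave -0.05 to 0.07. After Benjamini-Hochberg adjustment over the 36 pairs, 0 passed the two-sided exact permutation test, and 3 had an unadjusted p under 0.05.

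Those 3 pairs involve Isg15, Irf7, Bst2 and Ifitm3. Isg15 and Ifitm3 had r = 0.77 (exact permutation p 0.0273, adjusted 0.533) and Spearman's rho 0.60 (exact permutation p 0.132, adjusted 0.811), with r = 0.85 without the 2 libraries farthest from the Isg15 median. Within the groups r was 0.72 in cKO and 0.87 in control libraries (n = 4 each). Irf7 and Bst2 had r = 0.74 (exact permutation p 0.0344, adjusted 0.533) and rho 0.88 (exact permutation p 0.00724, adjusted 0.261), with r = 0.79 without the 2 farthest libraries, 0.99 within cKO and 0.65 within control libraries. Isg15 and Irf7 had r = 0.72 (exact permutation p 0.0444, adjusted 0.533) and rho 0.74 (exact permutation p 0.0458, adjusted 0.811), with r = 0.61 without the 2 farthest libraries, 0.70 within cKO and 0.94 within control libraries. All 6 pairs among these 4 genes were positive, from 0.51 to 0.77. The 4 genes were set together after their values were seen. Their longest transcripts have GC contents of 51.8% to 55.4%, a range that also holds Stat2 (51.9%). The part of GC content in these correlations was not tested.

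Ifit1 and Ifit2 had r = 0.75 (exact permutation p 0.0871, adjusted 0.581) but rho 0.05 (exact permutation p 0.935, adjusted 0.977). Without cKO replicate 1, in which both were lowest, r was -0.29, so the relation rests on that library. The negative r of Ifit1 with Irf7 (-0.33) and Bst2 (-0.41) turned to 0.24 and 0.24 when that library was left out. For Ifit2 the r of -0.41 with Irf7 became -0.07, and the r of -0.27 with Bst2 became 0.39.

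**Figure D4:**
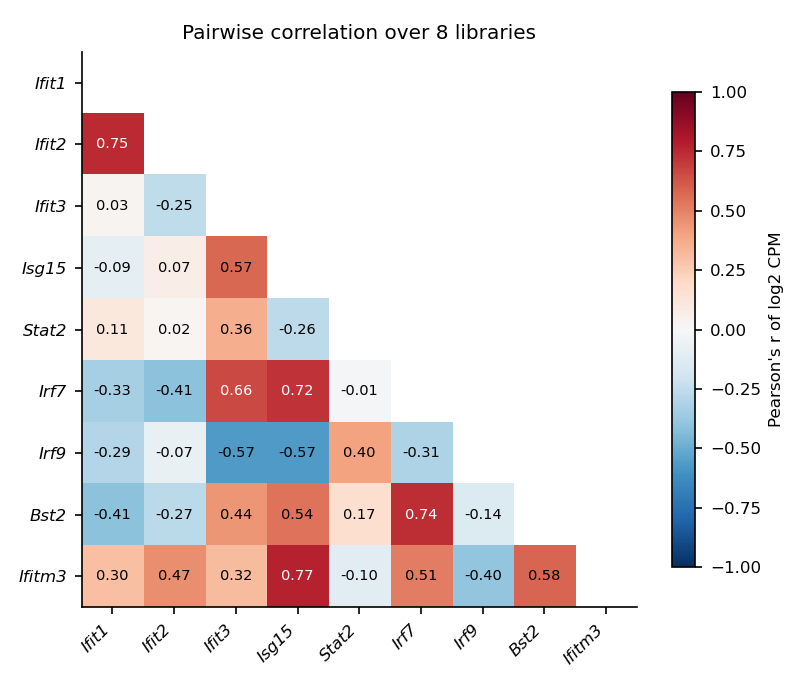
Pearson's r of log2 CPM over 8 libraries for the 36 pairs of genes, red for positive and blue for negative. Isg15 with Ifitm3 is highest at 0.77, and Ifit3 with Irf9 is lowest at -0.57.

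Taking the libraries one by one, cKO replicate 2 had 8 of 9 genes above their mean over libraries and 3 at their highest, with a mean z-score of 0.82. It also had the highest share of reads in genes (79.7%) and the lowest share not aligned (3.31%, against 5.15% to 10.4% in the rest). Its rho with GC content was 0.366, the highest after cKO replicate 1. The part of these differences in its z-scores was not tested. The lowest mean z-scores were -0.50 in control replicate 3 and -0.49 in cKO replicate 4, each with 2 of 9 genes above their mean. In cKO replicate 1 the mean was -0.18, from 2 genes at their highest (Irf7 and Bst2) and 2 at their lowest (Ifit1 and Ifit2). High and low libraries thus occurred in both groups.

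**Figure D5:**
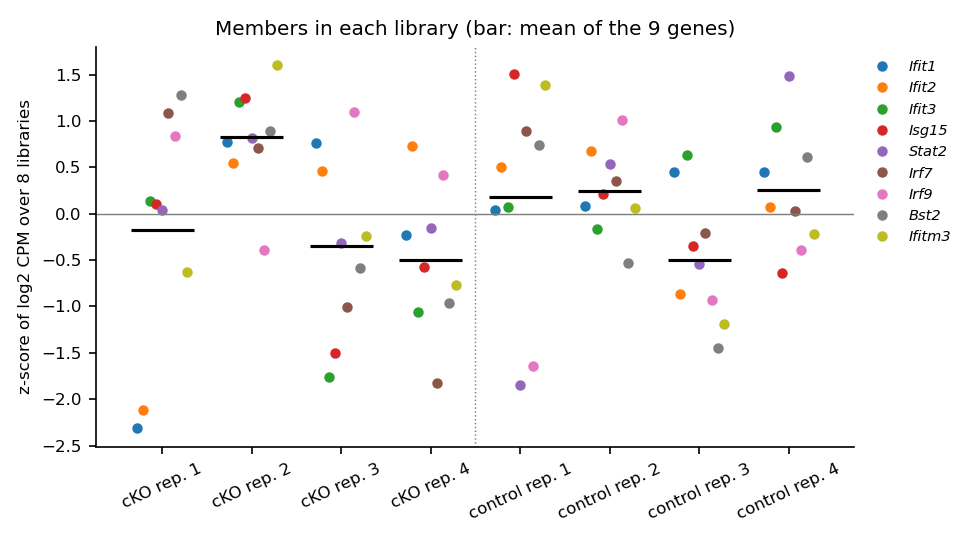
Log2 CPM of each gene as a z-score over the 8 libraries, cKO libraries left of the dotted line and control libraries right. The bar is the mean of the 9 genes, highest in cKO replicate 2 (0.82) and lowest in control replicate 3 (-0.50).

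Marker sums of cell types that can carry these transcripts overlapped between the groups. Summed CPM of 6 microglia markers ran from 233.5 to 255.9 in cKO and from 232.9 to 260.5 in control libraries, and of 6 endothelial markers from 214.2 to 230.7 in cKO and from 224.9 to 249.1 in control libraries. In cKO replicate 2, where the members were highest on average, the sums were 233.5 for microglia, the lowest of the cKO group, and 230.7 for endothelial markers, the highest of the cKO group. Sums of 6 blood and immune markers ran from 3.23 CPM (cKO replicate 2) to 11.4 CPM in cKO and from 5.86 to 25.4 CPM in control libraries. Sums of 5 astrocyte markers ran from 1148 to 1224 CPM in cKO and from 1030 to 1194 CPM in control libraries, and of 5 neuron markers from 5659 to 6049 CPM in cKO and from 5693 to 6329 CPM in control libraries. No marker on these lists was at 0 in all libraries, and 1 of them, the astrocyte water channel gene Aqp4, was called by edgeR (higher in cKO). Marker by marker, the groups did not overlap for 2 of 5 astrocyte markers (higher in cKO) and 1 of 6 microglia markers (lower in cKO). The same held for 1 of 4 meningeal fibroblast markers (higher in cKO). No tested endothelial, neuron, oligodendrocyte, choroid plexus or blood and immune marker separated, and the share over all genes tested was 2.96%. Log2 fold changes were negative for 5 of 6 endothelial, 4 of 5 neuron and 4 of 4 choroid plexus markers. They were positive for 4 of 5 astrocyte, 4 of 6 microglia and 3 of 4 meningeal fibroblast markers. The part of cell composition in the members' levels was not tested.

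The genes most like the members were sought by Pearson's r with the mean z-score of the 9 genes over the 8 libraries. Of 16757 other tested genes, 19 (0.113%) had r above 0.9, and 0 of 110 other interferon pathway genes did. The 10 highest with a mean CPM of at least 1 were Llgl2 (0.96), Hnrnpa0 (0.96), Hpca (0.95), Asphd1 (0.95), Psmb5 (0.95), Trappc6b (0.94), Selenow (0.94), Brsk1 (0.93), Hddc3 (0.93) and Ldha (0.93), none of which is on the interferon lists. Each of these 10 genes had its highest CPM in cKO replicate 2, the library with the highest mean z-score of the members (0.82). The part of that library in these r values was not tested. Among pathway genes Tlr9, an endosomal DNA sensor gene, was highest at 0.80. An r above 0.7 was reached by 4 of 70 other interferon-stimulated genes (5.71%), against 2.80% of all other tested genes, and the median r was 0.12 against -0.0113. Among those 4, Epsti1 (mean 0.82 CPM) and Oas1a (mean 0.62 CPM) were at low levels. At the other end lay Ddx60 (-0.81) and Gbp7 (-0.79) of the same list. Tlr3 and Ikbke (both -0.78) and the receptor gene Ifngr1 (-0.71) of the other pathway lists lay there too. How many of all tested genes had an r that low was not counted.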

How the data were processed

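Total RNA of brain from 8 libraries (4 cKO, 4 control; group and number from the titles) was analysed. Each deposited file holds raw read counts, 1 whole number per gene. Reads were aligned with HISAT2 on GRCm39, per the submitters' processing notes; how they were counted, with which strand setting and annotation, is not given in the sources used here. In each file the last 5 entries name no gene and were left out; reads in genes were 63.8% to 79.7% of listed reads. Gene identifiers were matched to symbols for 51880 of 57186 genes. Names, lengths, GC content and promoters came from GRCm38 tables; no GRCm38 coordinate was joined to the counts.

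Genes were filtered by filterByExpr and libraries scaled by TMM. All 16766 genes were fitted by edgeR 4.0.16 in R 4.3.3 (robust quasi-likelihood, no term but group), p-values were adjusted by Benjamini-Hochberg, and the threshold was 0.05. Log2 CPM used a prior count of 2. Correlations used SciPy 1.17.1. Both steps were tested on simulated data. Alternatives were DESeq2 1.42.0, limma voom 3.58.1, other scalings and low-count filters, GC-content offsets, the replicate number as a block and libraries left out. Named genes were the 9 members and Akap11, up to 4 genes per pathway list by p-value and the 10 genes most like the members. The pathway gene most like them and the near copies were named too. Any other is named for its reads, its overlap or its r with the members. The members and lists were chosen with earlier results of these data known. The rule for the members counts 10 genes and names the 9 used here.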

Additional observations from a re-analysis of the deposited data

Results flagged for a closer look

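Ifit2 in cKO replicate 1, at 10.7 CPM, stood apart from the other 3 cKO libraries (14.9 to 15.4 CPM): its gap to the nearest was 0.891 of the group's range, above the critical value of 0.829 for 4 libraries. This was 1 of 18 groups examined, and chance gives about 1 in 20. The same library was also lowest for Ifit1.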

How the results depend on the processing

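No member was called in any fit, and the other interferon pathway genes (110 in the edgeR fit of all libraries) gave 0 calls in each as well. Over 154 refits of the 9 genes, 132 kept the sign; edgeR, DESeq2 or limma adjusted p ran from 0.737 upwards, and Ifit3 and Irf9 kept their sign in all. The sign turned as follows. With GC-content offsets: Ifit2 0.0171, Stat2 -0.000738, Ifitm3 -0.0057. With control replicate 1 and cKO replicate 1 both left out: Ifit1 0.07, Ifit2 0.11, Isg15 0.04, Stat2 -0.04. With 1 library left out, the ranges were -0.27 to 0.10 for Ifit1, -0.0742 to 0.0833 for Ifit2, -0.256 to 0.0537 for Isg15, -0.0373 to 0.0645 for Stat2, -0.22 to 0.00062 for Irf7, -0.0352 to 0.175 for Bst2 and -0.159 to 0.143 for Ifitm3 (0.193 with both first replicates left out). Genes called over all genes numbered 4, but 2 with limma voom, 3 with library totals, 7 with no low-count filter, 2 with both first replicates left out and 0 to 3 with 1 library left out (0 without replicate 2, 1 without replicate 4 of either group, 2 without cKO replicate 3, control replicate 1 or control replicate 3). The replicate number as a block gave 2 calls over all genes and none among the members; same-numbered libraries did not deviate together (r -0.03, 0.04, 0.07 and 0.05), so the numbers were not taken to pair libraries. Correlated pairs stayed at 0 of 36 in every setting, while the median r was 0.43 with both first replicates left out. With group means taken out, or with 2 libraries left out, a lone pair could not pass, since the permutation test then has too few orderings. Of the 10 genes most like the members, 5 remained among the 10 highest with group means taken out. The r of all 10 then ran from 0.93 to 0.98. Depth limits Isg15, Irf7 and Ifit1 most, with 17 to 76 reads per library. The causes were not tested.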
